A study of Caenorhabditis elegans with 2 samples.

Results

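The 500 regions described here were strong candidate binding regions of the C. elegans protein T26A5.8 that were left off the reproducible region list of the study. They were chosen by their pooled signal and by their lack of overlap with that list: of 30000 pooled entries, 441 overlapped any of the 369 thresholded regions by 1 bp or more and were dropped, and the 500 entries of highest signal were taken from the remaining 29559. These 500 are called members below, the 441 dropped entries thresholded entries, and the 29059 entries after the members other candidates. The pooled signal of the members is thus what chose them, and it is given as a description only. Whole mixed-sex young adults of strain OP598, with the mutation unc-119(tm4063) and the integrated transgene wgIs598, carried T26A5.8 with GFP and FLAG at its C-terminus. They were collected 63 h after synchronization at the starved L1 larval stage, and chromatin sheared by sonication was recovered with an antibody to GFP. There was 1 group of 2 biological replicates, numbered 3 and 4, so no condition was compared with another. Libraries of whole worms mix all tissues, and a region bound in few cells cannot be told apart from one weakly bound in many.

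The irreproducible discovery rate (IDR) procedure sets the rank of a candidate region in one replicate against its rank in the other and keeps regions that rank high in both. By that procedure a region can be strong in pooled data and still be left off when 1 replicate ranks it low. Whether this was why any member was left off was not tested. Genes for tRNAs are read by RNA polymerase III from short promoter elements inside the gene, called box A and box B, while most snoRNAs guide chemical modification of ribosomal RNA. In the compact genome of C. elegans the end of a gene often lies close to the start or the end of its neighbour.

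Sequences at 5 of the 20 strongest members show the kinds of place at which members lay. Each is the summit base with 50 bases on either side, from the RefSeq genome WBcel235 (ce11), forward strand, and carries the number of the member by pooled signal. Capitals mark the letters of box A, searched as TNGCNCAG, and of box B, searched as GTTCNANNC, on both strands. These letters were chosen after sequences in these data had been seen, and a match is a description, not a site. Member 3 covered chrX:11933693-11933793 over the tRNA-Thr gene F55G7.t1 and held both sets of letters. Member 4 covered chrV:6335345-6335445 over the tRNA-Cys gene T28C12.t1, with box A letters, and member 5 covered chrX:11252570-11252670 over the tRNA-Arg gene C03A3.t1, with box B letters on the reverse strand. Member 6, at chrIV:427239-427339, lay past the end of garr-1 and held box B letters with no annotated tRNA gene beside it. Member 7, at chrIII:6462712-6462812, lay in the tagged gene T26A5.8 itself and held neither.
F55G7.t1 member 3: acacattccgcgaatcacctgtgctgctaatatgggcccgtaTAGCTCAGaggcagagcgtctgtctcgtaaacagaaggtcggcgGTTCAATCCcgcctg
T28C12.t1 member 4: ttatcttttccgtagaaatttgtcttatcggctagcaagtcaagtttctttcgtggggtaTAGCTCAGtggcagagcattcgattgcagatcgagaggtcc
C03A3.t1 member 5: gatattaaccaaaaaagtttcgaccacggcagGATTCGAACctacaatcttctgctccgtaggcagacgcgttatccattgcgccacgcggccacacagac
garr-1 member 6: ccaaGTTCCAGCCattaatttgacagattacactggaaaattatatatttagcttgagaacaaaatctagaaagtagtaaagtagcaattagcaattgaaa
T26A5.8 member 7: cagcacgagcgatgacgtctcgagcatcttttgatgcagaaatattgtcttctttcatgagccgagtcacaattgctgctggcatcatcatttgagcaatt

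Every listed region carries a signal, which measures enrichment as the authors' peak caller scored it, but no read counts, so read depth is unknown and intervals below cover the counting of regions only. The lists of both replicates, like the pooled one, ran to 30000 entries and took in much background. Signals were ranked within a list and not compared between lists, whose scales are not stated. The replicate 3 list had a median width of 356 bp on ce11 and the other lists 360 bp. A region was given the rank of the strongest replicate entry that overlapped it. All 500 members were listed in replicate 3 and 497 in replicate 4.

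Pooled signal among the members ran from 62.6 to 104 with a median of 69.97, at pooled ranks 181 to 864. Thresholded entries had a median of 97.7 and ran from 19.5 to 399. The sets overlapped: 22 members were stronger than quartile 1 of the thresholded regions, at 89.3, and 1 was stronger than their median of 103.5. Among thresholded entries, 77 were weaker than the last member, mostly weaker entries beside a stronger one, since of the 361 thresholded regions that overlapped a pooled entry only 2 had none as strong as the last member. The deposited −log10 q-value of the authors' caller was at its highest for 160 members (32%, 95% interval 27.9 to 36.3), against 349 thresholded entries (79.1%, 75.04 to 82.8).

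The strongest member, on chromosome I from 1153953 to 1154312, had its summit 381 bp past the end of aps-3, the small subunit gene of an adaptor complex, within the body of znf-236. Its signal was 104 in the pooled list, 58.0 in replicate 3 (rank 208) and 42.6 in replicate 4 (rank 352). Of the 20 strongest members, 7 lay beside tRNA genes, 2 beside snoRNA genes and 6 at ends of protein-coding genes away from these. The first tRNA gene was F55G7.t1, with a pooled signal of 98.4 and ranks of 224 in replicate 3 and 600 in replicate 4. The next, T28C12.t1, had 96.9 with ranks of 187 and 635. Then came C03A3.t1, with 96.4 and ranks of 328 and 355. The neighbouring tRNA-Lys genes W10G11.t1 and W10G11.t2 shared a member of signal 92.5 and ranks 238 and 565. The other tRNA genes among the 20 were Y105C5B.t2 and Y105C5B.t3, which shared a member, F43C9.t1 and F18G5.t1.

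Of these 20, 15 ranked lower in replicate 4 and 5 lower in replicate 3, and 17 were still within the first 1000 entries of both. The snoRNA genes ZK484.9 and M03D4.78 had pooled signals of 94.4 and 90.8. The second of these also lay in the start window of zen-4, a kinesin gene needed for cytokinesis. Its ranks were 578 in replicate 3 and 271 in replicate 4. At gene ends, garr-1 had a pooled signal of 96.3 and ranks of 146 and 1192, and pas-2, a proteasome subunit gene, had 93.6 and ranks of 183 and 1565. The splicing factor gene rsp-6 had 92.4 and ranks of 262 and 360. The summit past Y39B6A.42, on chromosome V, also lay 21 bp from the start of Y39B6A.43, with ranks of 182 and 579. The remaining members of the 20 lay 135 bp from the start of mir-8196.1, in introns of sre-45, a chemoreceptor gene, and Y69A2AR.31, and in sequence whose nearest gene starts were fbxb-58 (1025 bp away) and F55G7.5 (1391 bp away).

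**Figure D1:**
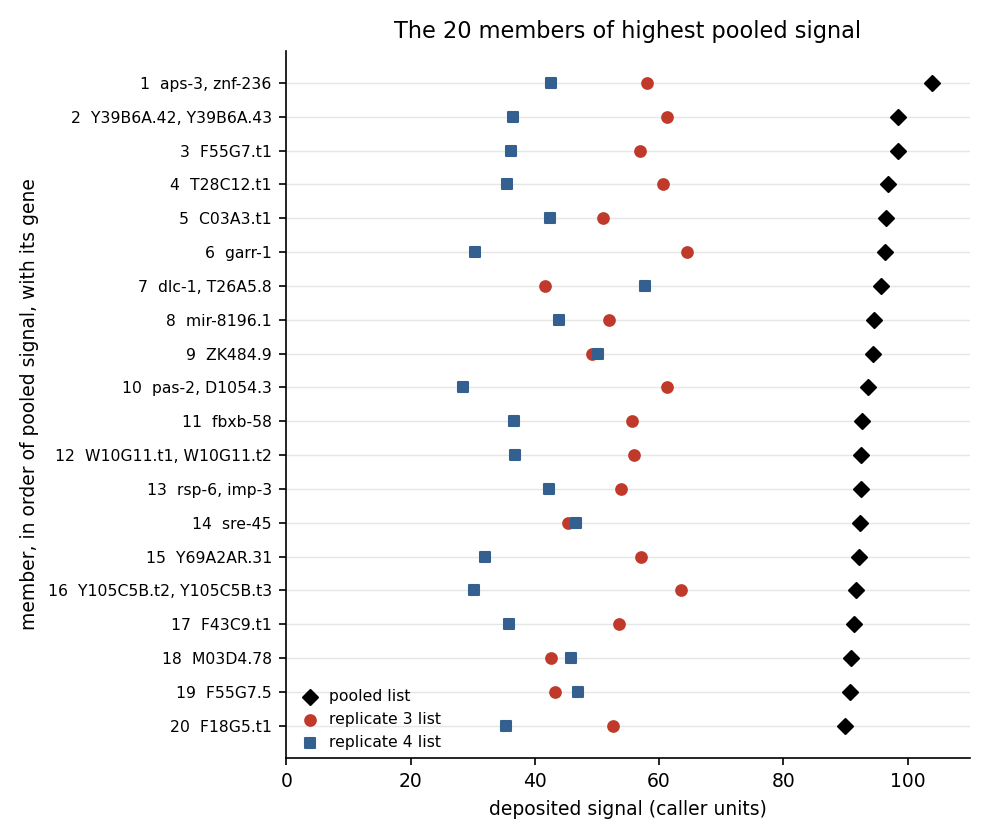
Deposited signal (x axis, caller units) of the 20 members of highest pooled signal (y axis, labelled by the genes at the summit or the nearest gene start) in the pooled, replicate 3 and replicate 4 lists. The pooled values lie between 89.8 and 104, and each list has its own scale, so only ranks were compared between the replicates.

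The tagged gene was among the members. T26A5.8 spans 6462216 to 6462856 on chromosome III, reverse strand, and member 7, from 6462582 to 6462941, had its summit 94 bp inside the gene start. The same summit lay past the end of dlc-1, a dynein light chain gene, so it cannot be assigned to one gene alone. Its signal was 95.7 in the pooled list, 41.7 in replicate 3 (rank 621) and 57.7 in replicate 4 (rank 121). Within 20 kb of the start of T26A5.8 there were 3 members, a number reached or passed around 83 of 19973 protein-coding genes (0.416%). The strain also carries T26A5.8 in its transgene, whose part in this signal was not tested. Around unc-119 there was no member and 1 weaker pooled entry, of signal 20.2.

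The threshold is set on replicate ranks, so the ranks of members and thresholded entries are given here as a description. The median rank of members was 775 in replicate 3, with quartiles of 465 and 1385.5, and quartiles of thresholded entries were 99 and 368 there. In replicate 4 the median was 824.5 among members and 216 among thresholded entries. The better of the 2 ranks had a median of 492.5 among members and 140 among thresholded entries, and the worse one 1600 and 349. The larger rank was more than 5 times the smaller for 158 members (31.6%) and for 92 thresholded entries (20.9%). The first 1000 entries of replicate 3 held 306 members (61.2%), beside 3.93% of all pooled entries. Those of replicate 4 held 277 (55.4%), beside 3.91% of all pooled entries. Both held 123 members (24.6%, 95% interval 20.9 to 28.6), beside 1.78% of all pooled entries and 369 of the 441 thresholded entries (83.7%).

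Neither replicate alone fell short. Replicate 4 alone left 183 members (36.6%, 95% interval 32.4 to 41.0) out of its first 1000 entries, replicate 3 alone left out 154 (30.8%, 26.8 to 35.1), and 40 (8%) were missing from both. By rank, 267 members (53.4%, 48.9 to 57.8) were lower in replicate 4, against 49.4% of all pooled entries. In replicate 3, 233 (46.6%, 42.2 to 51.1) were lower, against 44.5% of all pooled entries. Each interval thus held the share over all pooled entries. Every member could be ordered, while the remaining pooled entries had equal ranks or were listed in neither replicate. Both pooled shares are therefore lower than among entries that could be ordered.

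**Figure D2:**
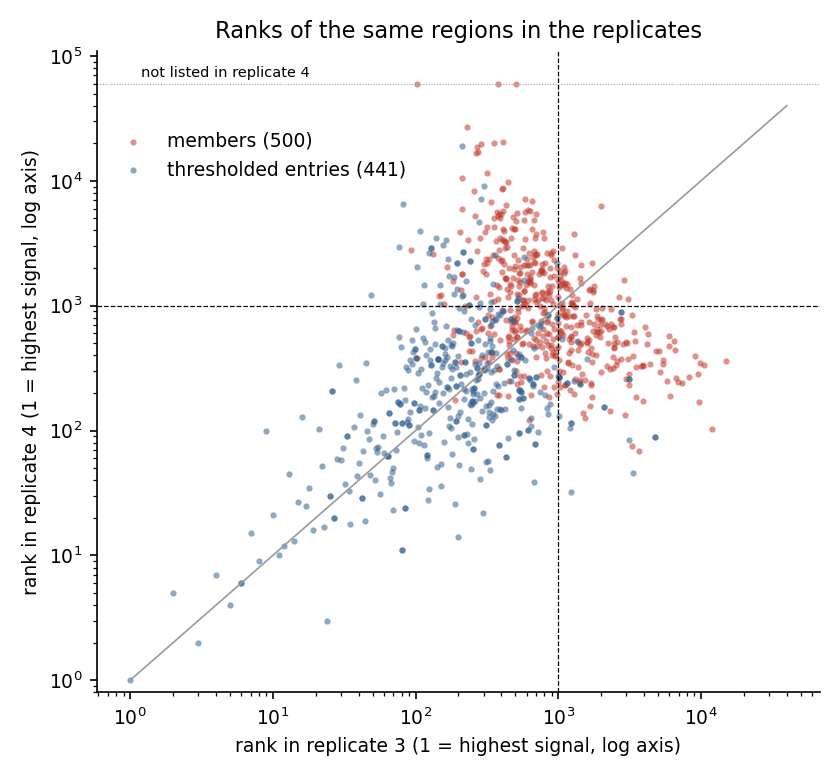
Rank in replicate 3 (x axis) and in replicate 4 (y axis), both on log scales, of the 500 members and the 441 thresholded entries, with dashed lines at rank 1000, a line of equal ranks, and 3 members not listed in replicate 4 drawn at the top. Members spread to both sides of the line of equal ranks, 267 ranked lower in replicate 4 and 233 lower in replicate 3, and 123 lie within the first 1000 of both.

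The members with the widest gaps show how far the replicates could differ. In favour of replicate 3, the member at the start of tctn-1, a gene of the ciliary transition zone, within cyc-2.1, had rank 102 there with a signal of 70.4 and was not listed in replicate 4. Its replicate 3 entry also overlapped member 383, at the start of cyc-2.1, a cytochrome c gene. Member 383 had rank 381 in replicate 4, so this gap depends on how neighbouring entries were matched. In all, 10 members shared a replicate 3 entry and 8 a replicate 4 entry with another member. The other 2 members not listed in replicate 4 lay at the start of fbxl-1 (rank 380 in replicate 3) and beside the snoRNA gene F43A11.8 (rank 507). At F43A11.8, 94.4% of the 31-base words within 50 bases of the summit occurred more than once in the genome. The member past the end of C06B3.6 had ranks of 228 in replicate 3 and 27185 in replicate 4, and that at the starts of rpl-7A and set-21 had 268 and 18697.

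In favour of replicate 4, the member past the end of mdl-1, which encodes a relative of the Mad transcription factors, had rank 103 in replicate 4 and 11918 in replicate 3. Y43F8B.2 followed with 170 in replicate 4 and 9739 in replicate 3. The member past the end of hphd-1 had 69 in replicate 4 and 3657 in replicate 3, and that past phb-2, a prohibitin gene, had 75 and 3304. The member between the converging ends of B0250.5 and dct-16 had 361 in replicate 4 and 15046 in replicate 3. All 5 of these summits lay in an end window, as did 2 of the 5 members with the widest gaps in favour of replicate 3, those at C06B3.6 and F43A11.8.

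The share of members ranked lower in replicate 4 differed between places in the genome, and these differences were not tested. Introns away from gene starts and ends held 39 members, of which 11 were lower in replicate 4 (28.2%, 95% interval 15.001 to 44.9). The median rank of these 39 was 1090 in replicate 3 and 643 in replicate 4. Summits in both an end and a start window were lower in replicate 4 in 50 of 84 cases (59.5%, 48.3 to 70.1), with median ranks of 673.5 in replicate 3 and 1199 in replicate 4. Among thresholded entries the shares were 35.3% (6 of 17) in introns and 50.7% in both windows. The next 500 entries had 56.25% and 41.1%, and other candidates 48.4% and 47.6%. Intergenic members were lower in replicate 4 in 18 of 27 cases (66.7%, 46.04 to 83.5). There the share was also 66.7% of thresholded entries (10 of 15), 73.7% of the next 500 entries and 49.6% of other candidates. Other candidates listed in neither replicate count in these shares as not lower. Members beside tRNA genes were lower in 63 of 111 cases (56.8%, 47.02 to 66.1), against 58.7% of thresholded entries and 62% of other candidates beside them. GC content differed as well: the median within 50 bases of the summit was 46.5% in members lower in replicate 4 and 44.6% in those lower in replicate 3. At 50% GC or above, 102 of 168 members (60.7%, 52.9 to 68.1) were lower in replicate 4. The next 500 entries had a like share there, 100 of 162 (61.7%, 53.8 to 69.2), against 51.7% of thresholded entries and 51.1% of other candidates. In the 4 lower ranges of GC the share of members lay between 45.5% and 52.5% with no steady order, and the part of GC in the ranks was not tested.

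Members were also set beside thresholded regions of like pooled signal. Between signals of 80 and 90 there were 63 members and 59 thresholded regions, each region taken by its strongest entry. The worse rank had a median of 743 among these members (quartiles 515.5 and 1049) and 782 among these thresholded regions (530 and 1088.5). Of these members, 45 (71.4%, 95% interval 58.7 to 82.1) were in the first 1000 entries of both replicates, against 41 of these thresholded regions (69.5%, 56.1 to 80.8). Between 70 and 80 the median worse ranks were 1280 for 167 members and 1063 for 27 thresholded regions, with 27.5% and 40.7% in the first 1000 of both. Below 70, where 251 members lay, they were 2140 and, for only 5 thresholded regions, 1613. There 16 members (6.37%) and 2 thresholded regions were in the first 1000 of both. From 90 up to the strongest member the median worse ranks were 578 for 19 members and 466.5 for 88 thresholded regions, with median replicate 4 ranks of 565 and 311.5. In that band 84.2% and 85.2% were in the first 1000 of both. Shares beside tRNA, snoRNA and snRNA genes had no constant order: they were 31.7% of members and 14.8% of thresholded regions between 70 and 80, 46.0% and 33.9% between 80 and 90, and 42.1% and 51.1% from 90 up, with overlapping intervals in each band.

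Many members were on the thresholded list of the other genome build. The authors deposited the same kinds of lists on ce10, where the thresholded list held 609 regions, with a lowest signal of 73.9, against 369 regions and 87.7 on ce11. No coordinates were carried between builds. Instead, 492 members were matched to a ce10 pooled entry of the same chromosome, width, summit offset and signal. Of these, 206 (41.9%, 95% interval 37.5 to 46.4) overlapped a ce10 thresholded region, and so did 23 of 483 matched entries (4.76%) among the 500 after the members and all 425 matched thresholded entries. The share was 82 of 99 among the strongest 100 members and 12 of 99 among the last 100. All of the strongest 20 but M03D4.78 were on the ce10 list. Among the 123 members in the first 1000 entries of both replicates, 81 of 121 matched were on it and 40 were not.

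The rule applied to the ce10 lists themselves gave a set of 500 entries of its own, of which 8.8% were in the first 1000 entries of both replicates, against 24.6% of the members on ce11. Ranks of the same members differed little between the builds in replicate 4 and more in replicate 3. In replicate 4, the 489 matched members with a rank had ranks on ce10 within 10% of those on ce11, and the other 3 were not listed on either build. In replicate 3, 272 (55.3%) did and none differed by more than 2-fold. The 206 members on the ce10 thresholded list had median ranks of 583.5 in replicate 3 and 613.5 in replicate 4 on ce10, and of 596 and 613.5 on ce11. The 286 not on it had medians of 859 in replicate 3 and 1113.5 in replicate 4 on ce11. Replicate 3 was also the list whose median width differed between the builds, 356 bp on ce11 and 364 bp on ce10. The part of these differences in the length of the thresholded lists was not tested. Whether a member counted as missing the threshold thus depended on the build, above all among the strongest.

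**Figure D3:**
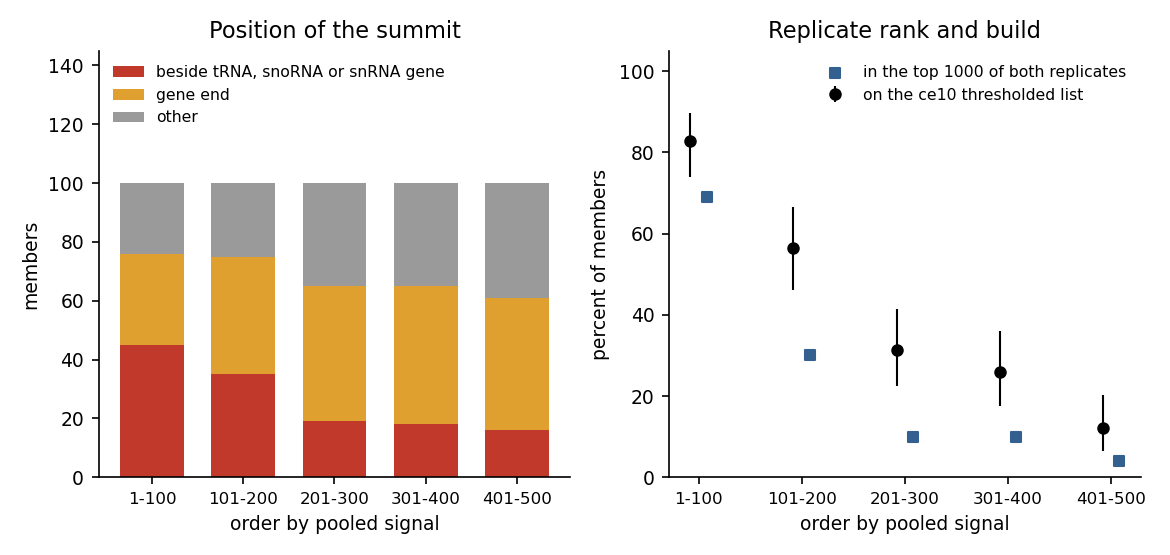
The members in groups of 100 by pooled signal (x axis). Left, members by position of the summit. Right, percent of members on the ce10 thresholded list (circles, with 95% binomial intervals, of those matched) and percent in the first 1000 entries of both replicates (squares). Both percentages fall along the order, the circles to 12.1% and the squares to 4%.

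Of the members, 133 (26.6%, 95% interval 22.8 to 30.7) lay beside a tRNA, snoRNA or snRNA gene, with the summit no more than 200 bp away, against 191 thresholded entries (43.3%, 38.6 to 48.1), 13.4% of the 500 entries after the members and 1.44% of other candidates. Genes for tRNAs made up most of them, with 111 members (22.2%, 18.6 to 26.1), against 28.6% of thresholded entries. A region beside several such genes was counted once, under tRNA genes first and snoRNA genes next. Beside snoRNA genes lay 19 members (3.8%, 2.30 to 5.87) against 10.9% of thresholded entries, and beside snRNA genes 3 members (0.6%, 0.124 to 1.74) against 3.85%. Along the order of the members, tRNA genes lay beside 37 of the first 100 and 13 of the last 100. Of 612 annotated tRNA genes, 253 had a member or a thresholded entry beside them, 134 of these a thresholded entry. The members added 20 snoRNA genes to 42 and 4 snRNA genes to 13.

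**Figure D4:**
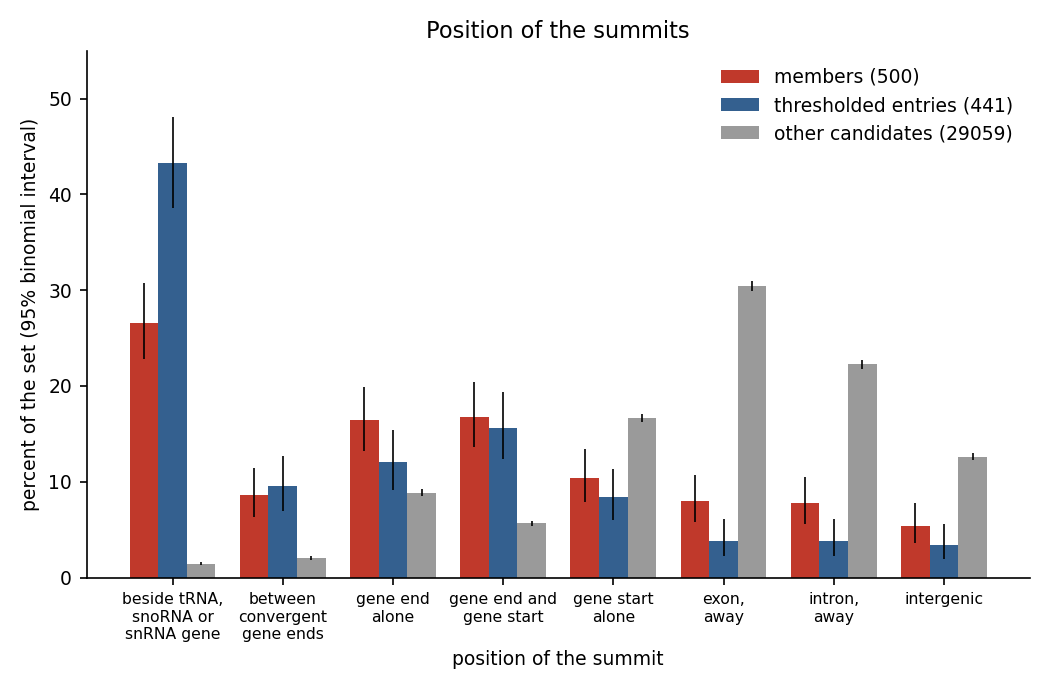
Percent of members, thresholded entries and other candidates (y axis, with 95% binomial intervals) by the position of the summit (x axis), each entry placed in the first class that applied, from left to right. Members lie between the other sets beside small RNA genes, at 26.6%, and their intervals overlap those of thresholded entries at gene ends and gene starts.

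Summits sat at the start of tRNA genes. The median lay 15 bp inside the start (quartiles −4 and 45 bp) over the 111 members, against 8.5 bp (−20 and 50.25 bp) over 126 thresholded entries. Of the 111 summits, 66 fell inside a tRNA gene. The tRNA genes beside members were of 20 products. Lysine led with 11 members, glycine and leucine had 9 each, and arginine, threonine, glutamate and aspartate had 8 each, while histidine and tryptophan had 1 each. Chromosome X held 54 of the 111 (48.6%, 95% interval 39.0 to 58.3), and 276 of the 612 annotated tRNA genes (45.1%). Box B letters were present in this window in 54 members beside tRNA genes (48.6%), against 43 thresholded entries beside them (34.1%), and box A letters in 36 (32.4%) against 37 (29.4%). Over all pooled entries beside tRNA genes the shares were 41.7% for box B and 25.7% for box A letters. Away from tRNA genes, box B letters were in 22 of 389 members (5.66%) and box A letters in 16 (4.11%). Thresholded entries away from tRNA genes held box B letters in 9.84% and box A letters in 5.08%, and all pooled entries away from them in 4.37% and 3.55%. Over all pooled entries the shares were 4.98% and 3.91%.

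Beside snoRNA genes, the summit of members lay at a median of 22 bp upstream of the start (quartiles 45 bp upstream and 44 bp downstream), and at 24.5 bp upstream for thresholded entries. After ZK484.9 and M03D4.78 the strongest were Y39G10AR.24, with a pooled signal of 84.0 and ranks of 449 in replicate 3 and 575 in replicate 4, and F19H8.6, with 81.7 and ranks of 872 and 274. The 3 members counted under snRNA genes were by ZK897.4 (79.99), Y9C9A.111 (75.5) and F38E11.10 (63.0). One of the 4 snRNA genes added was sls-2.9, a spliced leader RNA gene, beside a member that also lay by a tRNA gene and had a signal of 67.2. Genes for miRNAs lay beside 5 members, led by mir-8196.1 (94.6), mir-2214 (82.4), mir-4812 (74.0) and mir-5549 (65.8). One member, chosen after its values were seen, lay beside rrn-4.15, a 5S ribosomal RNA gene. This member spanned 17428655 to 17429014 on chromosome V, with a signal of 69.96 and ranks of 696 in replicate 3 and 1238 in replicate 4.

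Ends of protein-coding genes were the commonest place. The end window, 200 bp before to 500 bp after a gene end, held 232 member summits (46.4%, 95% interval 41.96 to 50.9), against 45.6% of thresholded entries, 37.2% of the next 500 entries and 16.8% of other candidates. Away from tRNA, snoRNA and snRNA genes it held 209 of 367 members (56.9%, 51.7 to 62.1), against 164 of 250 thresholded entries (65.6%, 59.4 to 71.5). The median of these 209 summits lay 183 bp past the end (quartiles 98 and 266 bp), against 164 bp for thresholded entries, and 193 of the 209 lay past the end. Between converging gene ends lay 43 members, at 1 end alone 82, and at both an end and a start 84. The start window, 1000 bp before to 200 bp after a gene start, held 167 members (33.4%, 29.3 to 37.7), against 35.6% of thresholded entries and 22.9% of other candidates. Gene starts without a gene end held 52 members (10.4%) and 8.39% of thresholded entries.

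**Figure D5:**
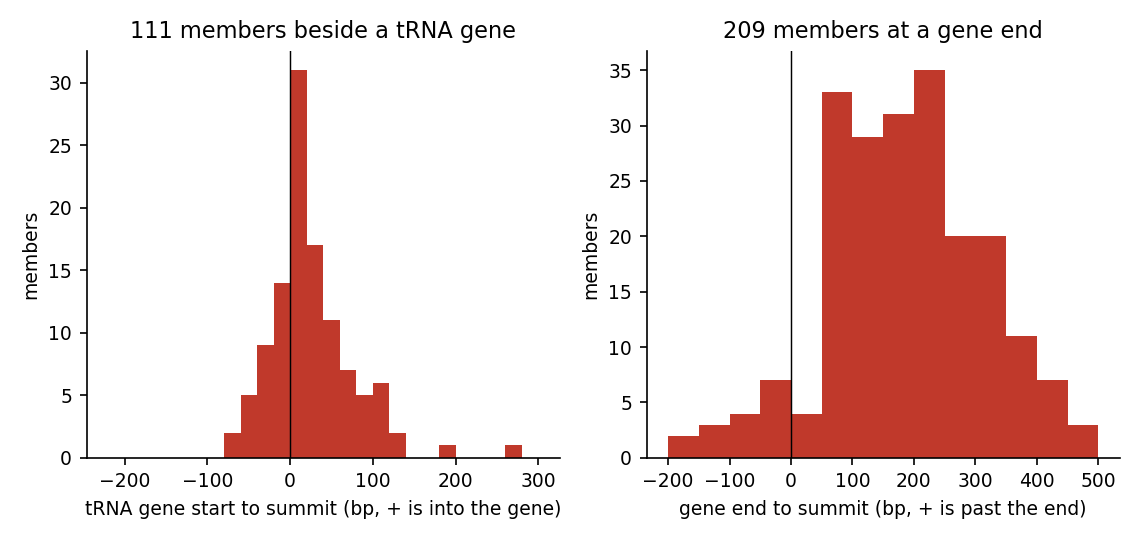
Number of members (y axis) by distance in bp (x axis) from the start of the tRNA gene to the summit, in 20 bp steps (left, 111 members), and from the end of the protein-coding gene to the summit, in 50 bp steps (right, 209 members away from small RNA genes). Summits cluster around the tRNA start, with a median of 15 bp, and past the gene end, where 168 of 209 lie 50 to 350 bp beyond it.

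Inside genes and between them the members were fewer than other candidates but not absent. Exons away from starts and ends held 40 members (8%, 95% interval 5.78 to 10.7), against 3.85% of thresholded entries (2.26 to 6.10) and 30.5% of other candidates. Introns held 39 (7.8%, 5.61 to 10.5), against 3.85% (2.26 to 6.10) and 22.2%. Intergenic sequence held 27 (5.4%, 3.59 to 7.76), against 3.40% and 12.6%. Chromosome X held 37 of the 367 members away from small RNA genes (10.1%, 7.20 to 13.6), against 8 of 250 thresholded entries (3.2%, 1.39 to 6.21) and 19.7% of other candidates. On chromosome V the share was 68 of 367 members (18.5%, 14.7 to 22.9), against 28 of 250 thresholded entries (11.2%, 7.57 to 15.8) and 21.6% of other candidates.

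Few members lay on the flanks of a thresholded region, entries that overlapped one having been dropped. The median gap to the nearest was 79820.5 bp for members, against 80263 bp for the next 500 entries and 101098 bp for other candidates, and 23 members (4.6%, 95% interval 2.94 to 6.82) lay within 1000 bp of one, against 3.6% of the next 500 entries and 1.14% of other candidates. No replicate entry matched to a member also overlapped a thresholded region. Only 8 members overlapped another member.

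Protein-coding genes with a member in the start or end window numbered 458, of 9422 with any pooled entry there (4.86%). Of the 458, 443 had no thresholded entry, which was the common case, since only 355 of all 9422 had one. Among ribosomal protein genes, 16 of 76 had a member (21.1%, 95% interval 12.5 to 31.9), 13 of them at the end and 4 at the start, with 1 gene counted in both. Of these 16, 14 had no thresholded entry, while 23 of all 76 had one. The strongest were rps-23 (pooled signal 84.4, ranks 442 in replicate 3 and 383 in replicate 4), rpl-11.1 (83.6, 405 and 927), rpl-24.2 (78.7, 3479 and 185) and rpl-6 (77.9, 456 and 920). For rpl-24.2 replicate 3 fell short, and for the others both ranks were under 1000. These lists were written with earlier results of these data known, so their shares are descriptions and no support for any reading.

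Proteasome genes had a member in 8 of 30 cases (26.7%, 95% interval 12.3 to 45.9), 6 of them at the end. None of these 8 genes had a thresholded entry, and only 2 of all 30 had one. Besides pas-2 these 8 were led by the core particle genes pas-3 (83.8, ranks 344 in replicate 3 and 805 in replicate 4) and pas-1 (71.0, 576 and 1316), and the regulatory particle gene rpn-1 (72.2, 1184 and 417). Translation factor and tRNA synthetase genes had 10 of 57 (17.5%, 8.75 to 29.9). They included the elongation factor gene eef-1G (80.3, 211 and 1781), whose member also lay beside a snoRNA gene. Others were the cap-binding protein gene ife-1 (79.2, 571 and 1055), the initiation factor gene eif-3.C (77.0, 537 and 1815) and the synthetase gene ears-2 (76.8, 784 and 649). The summits at the starts of pas-1, ife-1 and eif-3.C also lay past the ends of rpoa-12, nud-1 and sys-1. Those at the ends of pas-2, pas-3 and rpn-1 also lay at the starts of D1054.3, chp-1 and T22D1.8, and that of ears-2 at the start of uncp-18. None of these summits can be assigned to one gene alone. The same holds for other genes named by a start or end window, among them rsp-6, rpl-6, rps-23, uaf-2, mex-3, glh-2, nos-1 and fat-6.

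Oxidative phosphorylation genes had a member in 6 of 30 cases (20%, 95% interval 7.71 to 38.6). The strongest were the respiratory complex gene ucr-2.3 (69.0, ranks 312 in replicate 3 and 1809 in replicate 4), the ATP synthase gene atp-5 (66.5, 597 and 2122), the complex I gene nuo-4 (65.5, 1964 and 706) and cyc-2.1 (65.2, 102 and 381). The member at the start of cyc-2.1 also lay past the end of rpl-20 and was counted for ribosomal protein genes too. The 5 splicing factor genes of 42 (11.9%, 3.98 to 25.6) all had the member at their end. They were led by rsp-6, the snRNP core protein gene snr-1 (73.6, 2419 and 318), the SR protein gene rsp-3 (73.0, 889 and 1119) and uaf-2 (70.6, 1837 and 405), which encodes a subunit of the factor that binds 3′ splice sites. Histone genes had 4 of 31 (12.9%, 3.63 to 29.8), in 2 members. These lay by his-59 and his-60 (77.7, 446 and 190) and by his-47 and his-48 (66.6, 2852 and 496), families whose near-identical copies can share reads. Neither of these members had repeated sequence at the summit by the measure given below, and the part of shared reads was not tested.

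The interval held the share of all genes, 4.86%, for the splicing factor and histone lists and for each remaining list of protein-coding genes. Germline genes had 4 of 61 (6.56%, 95% interval 1.82 to 15.9), all at the gene end: the helicase gene glh-2 (75.5), puf-3 (69.0), nos-1 (68.6) and mex-3 (64.6), each of the last 3 encoding an RNA-binding protein. Heat shock and chaperonin genes had 3 of 45 (6.67%, dnj-19, dnj-13 and hsp-12.3), mitochondrial ribosomal protein genes 3 of 51 (mrps-21, mrpl-32 and mrpl-28), and intestine genes 2 of 46, the fatty acid desaturase gene fat-6 (69.9) and spp-1 (67.8). Neuron genes had 2 of 72 (nlp-4 and ins-10), hypodermis genes 2 of 36 (grl-26 and wrt-5), the collagen list 1 of 88 (dpy-11, which encodes a thioredoxin-like protein) and nuclear hormone receptor genes 1 of 109 (nhr-47). The same member was counted for dnj-19 and nhr-47, and another for both mrpl-32 and the proteasome gene rpn-3. Members at hsp-12.3, nlp-4 and grl-26 also lay beside a snRNA, a snoRNA and a tRNA gene, in that order. None of 26 muscle, 34 homeobox, 11 major sperm protein, 6 pharynx or 4 vitellogenin genes with a pooled entry had a member, which with so few genes allows shares of up to 10.3% for homeobox genes and more for the other 4 lists.

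Repeated sequence was met at the summits of a minority of members, most of them beside tRNA genes. In 47 members (9.4%, 95% interval 6.99 to 12.3), at least 50% of the 31-base words within 50 bases of the summit occurred more than once in the genome, against 5.90% of thresholded entries (3.89 to 8.52) and 2.15% of other candidates. Of these 47, 34 lay beside tRNA genes, where the share was 30.6% of members (22.2 to 40.1) against 19.0% of thresholded entries (12.6 to 27.003), 43.1% of the next 500 entries and 29.2% of other candidates. Away from small RNA genes it was 12 of 367 members (3.27%, 1.70 to 5.64) against 2 of 250 thresholded entries (0.8%, 0.0970 to 2.86) and 1.89% of other candidates. In a window reaching 100 bases to either side the share of members was 1.8%. Reads from copies of one sequence cannot be told apart, and the part of such reads in the signal was not tested. GC content averaged 45.6% ± 8.50 (SD over 500 members), with a median of 45.5% against 46.5% for thresholded entries and 42.6% for other candidates.

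At the limit of the 500, the last members inside were those past the end of exos-1, an RNA exosome gene (62.616), and beside the snoRNA gene F26D10.24 (62.601). The first entries outside lay in an exon of hrpk-1 (62.578) and at the start of ZK686.6 (62.491). Their ranks were 635 in replicate 3 and 1506 in replicate 4 for exos-1, 1560 and 844 for F26D10.24, 1279 and 1771 for hrpk-1, and 1417 and 1053 for ZK686.6. The entry at ZK686.6 was on the ce10 thresholded list and the other 3 were not. The signal changed little across the limit of 500.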

How the data were processed

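ChIP-seq region lists of 1 group of 2 biological replicates were used as the authors deposited them. Reads and control libraries were not analysed here. The deposited signal is the enrichment value of the authors' caller, and the deposited −log10 q-value is the caller's p-value adjusted for many tests. Per the deposited notes, replicate lists of peaks and background served as IDR input, the pooled list came from both replicates, and the thresholded list from these. No source used here names the aligner or the caller. The members and lists were chosen with earlier results of these data known.

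Lists were read on ce11, whose entries all ended within the chromosomes of WBcel235. Genes came from Ensembl release 115 (46890 genes, 46881 with a RefSeq name by identifier). A summit was beside a small RNA gene within 200 bp. Members were matched to the strongest replicate entry overlapping by 1 bp, and unlisted members ranked last. Matching to ce10 used a relative tolerance of 1e-05 in signal. Repeats were counted as 31-base words over the whole genome. Shares have exact 95% binomial intervals (Clopper-Pearson), and no tests were run, since the rule used the signal and 1 group allows no contrast. Functions were tested on simulated intervals and sequences. Python 3.11.15, pandas 2.3.3, numpy 2.4.6, scipy 1.17.1 and matplotlib 3.10.9 were used.

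Named regions were the 20 strongest members, the 5 with the widest rank gap in each direction, the 2 on each side of the limit, up to 4 by signal of each gene list and small RNA class, T26A5.8 and unc-119. Gene lists took members at the start or end window. Alternatives were other numbers of entries, overlaps, windows, matches and rank limits, each replicate list alone, and the ce10 lists. Neighbouring regions are not independent.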

Additional observations from a re-analysis of the deposited data

How the results depend on the processing

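Of 71 values under alternatives, 44 stayed within the interval of the value reported (GC content within 1 SD) and 27 left it. With 250 entries, 36% lay beside tRNA, snoRNA or snRNA genes, 12.8% had repeated sequence, 42.8% were in the first 1000 of both replicates and 23.6% were missing from replicate 3 only. With 1000 entries the shares were 20% beside these genes, 41.8% at gene ends, 12.8% in the first 1000 of both and 26% missing from replicate 3 only. These shares move with the number taken because they change along the order of signal.

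Leaving out either replicate gave 18.2% to 22% beside small RNA genes, 32.6% to 32.8% at gene starts, 41.6% to 41.8% at gene ends, 4.2% to 4.4% near thresholded regions, 6% to 7.6% with repeated sequence and a GC content of 44.6% to 46.3%. Narrower and wider windows gave 22% and 53% at gene starts and 24.6% and 56.8% at gene ends. Within 500 bp and 2000 bp of a thresholded region lay 2% and 8%, and within 1000 bp 2.6% once entries within 500 bp had been dropped. In a window reaching 100 bases to either side repeated sequence fell to 1.8%. Matching by summits within 100 bp put 19.6% in the first 1000 of both, the ce10 lists 8.8%, and rank limits of 500 and 2000 put 4.8% and 62.4% in both and 23.4% and 15.2% missing from replicate 3 only. The cause was not tested.

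The share ranked lower in replicate 4 stayed between 53.2% and 55% with entries dropped, matched or ranked otherwise, and was 55.2% with 250 entries. No paired analysis was possible because there is 1 group. Read depth is unknown, so weak and absent signal in a replicate cannot be told apart.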
